A study of Mus musculus with 6 samples.

Results

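Genomic imprinting is the expression of a gene mainly from the copy inherited from 1 parent. The genes described here are 42 mouse imprinted genes outside the Meg3 locus, chosen by gene symbol from the gene column of the deposited expression table. All 42 symbols were found among 56826 rows. Gene symbols name 23473 of the rows, and FANTOM3 cDNA clones name the remaining 33353. The libraries hold ribosomal-RNA-depleted total RNA from the brains of adult male C57BL/6 mice aged 8 to 9 weeks. In the ischemia/reperfusion group (3 libraries, I/R 1 to 3) a coated filament was pushed up to the origin of the middle cerebral artery, kept there for 1 h and withdrawn for 6 h of reperfusion, a model of ischemic stroke. In the sham group (3 libraries, sham 1 to 3) the vessels were exposed in the same way without inserting the filament. Both groups were anesthetized with chloral hydrate, and no allele or agent separates them. The labels name the tissue as brain without a region or hemisphere, and do not say that each library came from its own animal. The p-values therefore rest on the spread among these 6 libraries, which can be technical. In bulk RNA, fewer cells of a type and less RNA per cell cannot be told apart.

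Imprinted genes lie in clusters, and most clusters are governed by an imprinting control region, a stretch of DNA that is methylated on 1 parental copy only. The zinc finger protein ZFP57 binds methylated copies of its motif there and keeps the mark, and in several clusters a long noncoding RNA transcribed from the unmethylated copy silences its neighbors on the same chromosome. Many imprinted genes are strongly expressed in brain, where they act in growth, neuronal survival, feeding and maternal behavior, and several are concentrated in the hypothalamus. The counts do not separate the parental copies, so the expressed copy was not measured here. Whether counting used the strand is not given in the sources, so reads of overlapping or antisense genes cannot be told apart.

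Library totals were 45.4 to 48.6 (in units of 1e6 counts) in ischemia/reperfusion and 48.1 to 49.7 in sham. Neuronal markers, summed over 10 genes, were at 3879, 4565 and 3864 CPM (counts per 1e6 of a TMM-scaled library total) in I/R 1 to 3. Sham 1 to 3 had 4436, 4470 and 4281 CPM, so I/R 1 and I/R 3 lay below every sham library and I/R 2 above. Of these genes 3 had a positive and 7 a negative log2 fold change. An unadjusted p under 0.05 was found for 1 on the higher side and 2 on the lower side, and DESeq2 called 0. Among all gene-symbol rows tested, these sides held 6.39% and 8.71%, and DESeq2 called 1.70% of the rows it adjusted. Summed markers of astrocytes (10 genes) were at 5281, 5177 and 4794 CPM in I/R 1 to 3, against 5779.7, 5879.7 and 5694 CPM in sham 1 to 3, so the sums lay below sham without overlap. Of the 10 genes 8 had a negative log2 fold change. Of these 8, 4 had an unadjusted p under 0.05, against 8.71% of gene-symbol rows on the lower side. DESeq2 called 1 of the 10, Gjb6, against 1.70% of the rows it adjusted. Summed microglial markers (8 genes) were at 225, 259 and 238 CPM in I/R 1 to 3, against 219.8, 221 and 219.7 CPM in sham 1 to 3, so the sums lay above sham without overlap. Of the 8 genes 6 had a positive log2 fold change. Of these 6, 2 had an unadjusted p under 0.05, against 6.39% of gene-symbol rows on the higher side. DESeq2 called 1 of the 8, Cx3cr1, against the same 1.70%. The part of either cell type in the results below was not tested. Markers of other parts of the brain varied within the groups. The 10 hypothalamic markers summed to 124, 5.58 and 85.5 CPM in I/R 1 to 3, against 19.8, 6.35 and 79.7 CPM in sham 1 to 3. The 10 choroid plexus markers summed to 422, 23.5 and 1198 CPM in I/R 1 to 3, against 637, 580 and 788 CPM in sham 1 to 3. The 8 oligodendrocyte markers summed to 4079, 5095 and 10475 CPM in I/R 1 to 3, against 5258, 5073 and 6247 CPM in sham 1 to 3. I/R 2 held the lowest levels of the hypothalamic and choroid plexus lists, and I/R 3 the highest level of the oligodendrocyte list. Markers of meninges and fibroblasts (10 genes) summed to 61.7, 69.0 and 85.5 CPM in I/R 1 to 3. In sham 1 to 3 they summed to 83.6, 82.9 and 98.9 CPM. Of these genes 8 had a negative log2 fold change, 3 of them with an unadjusted p under 0.05 (8.71% of gene-symbol rows on that side). Blood markers (6 genes) summed to 128, 210 and 130 CPM in I/R 1 to 3. In sham 1 to 3 they summed to 148, 112 and 89.7 CPM. All 6 were positive, and DESeq2 called 2, against 1.70% of the rows it adjusted.

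The 42 genes form 20 groups by position, where genes on a chromosome were joined when at most 2 Mb apart, and 35 of them share a group with another member. Their levels covered more than 3 orders of magnitude. By RPKM, reads per kilobase of row length per 1e6 counts, 10 genes averaged above 50 and 8 below 1 over the 6 libraries. Nap1l5, a nucleosome assembly protein gene, had the highest mean (191 RPKM), followed by Ndn, the gene of the growth suppressor necdin (160 RPKM), and Snurf (153 RPKM). Phlda2, a growth-restraining gene of placenta, had the lowest mean (0.0712 RPKM). Its counts of 7, 0 and 4 in I/R 1 to 3 and of 1, 3 and 0 in sham 1 to 3 failed the filter on low counts, and a count of 0 allows up to 0.0648 CPM in I/R 2 and 0.0621 CPM in sham 3 (3 counts, counting error only). The other 41 genes were tested.

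After ischemia and reperfusion, none of the 41 tested imprinted genes passed an adjusted p of 0.05 (edgeR quasi-likelihood test with Benjamini-Hochberg adjustment over 40170 rows). The smallest adjusted p was 0.165, and DESeq2 also called 0 of them, with a smallest adjusted p of 0.0787. In the same edgeR fit 1 row of all rows tested was called higher (0.00249%) and 0 lower (0%), while DESeq2 called 576 rows (1.70% of those it adjusted). An unadjusted p under 0.05 was found for 3 imprinted genes (7.32%), below the 15.1% of all gene-symbol rows tested. Kcnq1ot1 and Cobl were higher in ischemia/reperfusion, where 6.39% of gene-symbol rows were, and Nnat was lower, where 8.71% were. All 3 ischemia/reperfusion libraries lay above or below all 3 sham libraries for 5 imprinted genes (12.2%), against 21.6% of gene-symbol rows. These were Kcnq1ot1, Cobl and Peg3 on the higher side (7.32% of members, 7.37% of gene-symbol rows) and Nnat and Blcap on the lower side (4.88% of members, 14.2% of gene-symbol rows). With all 6 libraries, the shares of members are at or below these backgrounds. Without I/R 2, the members with an unadjusted p under 0.05 were 12 (29.3%), with 0 called, against 15.4% of all rows tested. The 12 include both Snrpn and Snurf, which count the same reads, and this background includes the clone rows.

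Of the 41 log2 fold changes of ischemia/reperfusion over sham, 17 were positive (41.5%, against 44.2% of gene-symbol rows) and 24 negative. Their median was −0.03, against −0.04 over gene-symbol rows and 0.02 over all rows tested, and the sign of the members' median turned under 3 other settings (0.0074 with upper-quartile factors, 0.0050 with a mean of at least 1 CPM, 0.0087 with gene-symbol rows only). They ranged from −0.39 for Nnat to 0.82 for Peg10. The change was smaller than 0.1 in size for 14 genes and larger than 0.5 for 4 genes, which were Peg10, Magel2, Calcr and Peg12. Replicates were close for many of the genes, with a coefficient of variation under 10% for 20 genes in ischemia/reperfusion and for 22 genes in sham.

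**Figure D1:**
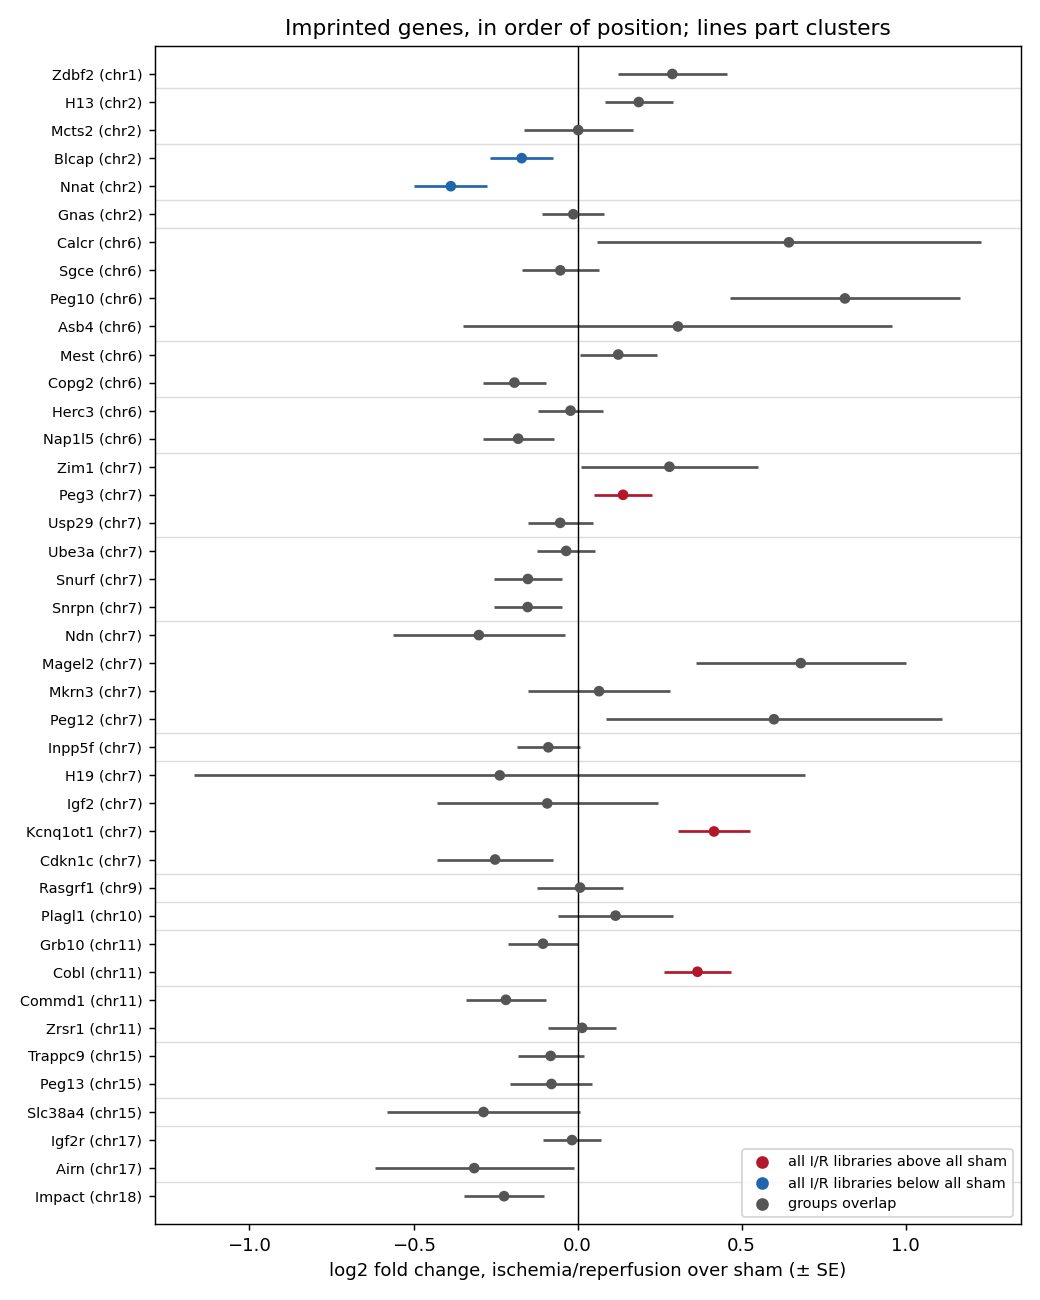
Log2 fold change of ischemia/reperfusion over sham (x axis, bars ± SE of the edgeR fit) for the 41 tested imprinted genes (y axis, in order of position, lines between clusters). Red and blue points mark the 5 genes whose 3 ischemia/reperfusion libraries all lay above or all below the 3 sham libraries. The others overlap, and the widest bars belong to H19, Asb4 and Calcr. Asb4 varied widely among the sham libraries.

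Promoter sequences were not used to choose the genes. RefSeq promoter windows of GRCm38.p6, which run from 250 bases before to 50 bases after a start, were at hand for 35 of the 42 genes. The ZFP57 core motif TGCCGC, searched on both strands (GCGGCA on the other), occurred in a window of 14 of these 35 genes (40.0%), against 3527 of 27025 genes (13.1%). By window the motif occurred in 15 of the members' 54 windows, against 11.6% of all 32851 windows. A gene was counted when any of its windows matched, and the members had more windows per gene than all genes had. Snrpn and Snurf share a window with a match, and Mest has nearly identical windows with the same matches, so some matches were counted more than once. The motif holds a CG, and the windows were not matched for CG or GC content. The 14 genes were Zim1, Snrpn, Snurf, Igf2, Nnat, Plagl1, Grb10, Mest, Copg2, Zdbf2, Nap1l5, Calcr, Mcts2 and Commd1. A core of the YY1 motif, GCCATNTT (AANATGGC on the other strand), occurred in 3 of 35 genes (8.57%), which were Ube3a, Mkrn3 and Slc38a4, against 6.96% of all genes with a window. A match is a match of letters only. The windows of Kcnq1ot1 and Nnat are printed because these genes had the smallest p on the higher and on the lower side, Peg3 because its window overlaps that of Usp29 head to head, and Nap1l5 because it had the highest level. Capitals mark the ZFP57 core on either strand, and each sequence runs 5′ to 3′ on the strand of its gene (RefSeq, GRCm38.p6).
Kcnq1ot1, chr7:143296498-143296797, minus strand, no match: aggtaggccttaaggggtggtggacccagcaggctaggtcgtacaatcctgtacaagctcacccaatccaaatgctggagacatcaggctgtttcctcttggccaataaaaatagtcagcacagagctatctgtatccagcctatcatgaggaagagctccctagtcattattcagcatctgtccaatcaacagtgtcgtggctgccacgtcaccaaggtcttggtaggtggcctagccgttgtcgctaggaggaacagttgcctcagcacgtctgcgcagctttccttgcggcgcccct
Nnat, chr2:157559828-157560127, plus strand, 1 match: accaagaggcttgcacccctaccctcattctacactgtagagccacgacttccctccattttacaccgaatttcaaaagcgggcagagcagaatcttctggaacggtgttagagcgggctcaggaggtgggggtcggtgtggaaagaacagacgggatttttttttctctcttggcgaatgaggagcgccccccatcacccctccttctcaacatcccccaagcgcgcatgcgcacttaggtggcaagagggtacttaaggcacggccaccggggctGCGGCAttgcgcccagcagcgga
Peg3, chr7:6730370-6730669, minus strand, no match: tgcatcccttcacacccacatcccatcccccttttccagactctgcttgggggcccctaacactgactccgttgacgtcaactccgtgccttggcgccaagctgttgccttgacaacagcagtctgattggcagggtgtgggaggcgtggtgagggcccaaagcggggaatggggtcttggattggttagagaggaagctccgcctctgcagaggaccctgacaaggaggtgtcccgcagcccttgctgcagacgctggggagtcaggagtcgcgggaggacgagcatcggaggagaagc
Nap1l5, chr6:58907077-58907376, minus strand, 2 matches: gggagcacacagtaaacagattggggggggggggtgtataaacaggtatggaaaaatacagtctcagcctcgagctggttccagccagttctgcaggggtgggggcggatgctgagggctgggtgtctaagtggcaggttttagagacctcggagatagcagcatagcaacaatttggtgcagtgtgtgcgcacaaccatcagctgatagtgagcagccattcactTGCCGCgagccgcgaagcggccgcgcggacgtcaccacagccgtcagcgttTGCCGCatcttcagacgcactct

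In the distal chromosome 7 cluster, Kcnq1ot1 had the smallest p of all members. Kcnq1ot1 is a long unspliced noncoding RNA made from the paternal copy within an intron of the potassium channel gene Kcnq1, on the opposite strand, and is known to silence neighboring genes in cis, Cdkn1c among them. It had 111, 134 and 134 CPM in I/R 1 to 3, against 87.1, 92.2 and 104 CPM in sham 1 to 3. The groups did not overlap, and the lowest ischemia/reperfusion library lay just above the highest sham library. The means were 126 ± 13.4 CPM in ischemia/reperfusion and 94.6 ± 8.85 CPM in sham (SD, n = 3 each), which gives a log2 fold change of 0.42 ± 0.11 (SE) that did not pass (edgeR adjusted p = 0.165, DESeq2 adjusted p = 0.0787). Without I/R 1 it did, with a log2 fold change of 0.49 and an edgeR adjusted p of 0.0320, and over all 15 alternatives the log2 fold change stayed between 0.36 and 0.49 and the adjusted p between 0.0320 and 0.506. The row covers chr7:143213111-143296547 (minus strand, mm10), 83437 bases long, so its mean of 1.33 RPKM is low for its number of reads.

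The cDNA clone rows along Kcnq1ot1 give its signal by position. The log2 fold change was above 0 for all 8 same-strand clones (median 0.28), where 59.4% of all clone rows tested were positive. The clone centered 8.35 kb from the start, fantom3_D130059L12, had 5.80, 7.15 and 6.86 CPM in I/R 1 to 3, against 4.38, 4.31 and 4.20 CPM in sham 1 to 3. Its groups did not overlap, and its log2 fold change of 0.62 ± 0.15 (SE) had an edgeR adjusted p of 0.153 and a DESeq2 adjusted p of 0.0396. The clone nearest the start, fantom3_C130002M05 at 1.24 kb, differed by 0.47 ± 0.16 (SE) and overlapped between groups. The 3 clones between 37.0 and 47.7 kb had log2 fold changes of 0.24 to 0.37, and the 3 clones from 52.1 kb on had 0.03 to 0.13. The slope along the RNA was not tested. Clones share their reads with the Kcnq1ot1 row and are no separate evidence for it.

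**Figure D2:**
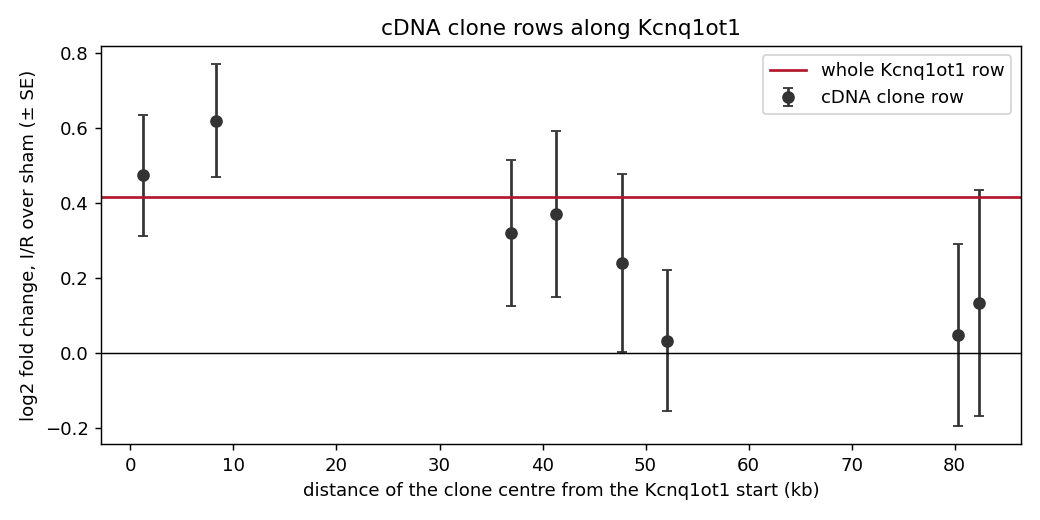
Log2 fold change of ischemia/reperfusion over sham (y axis, bars ± SE) of the 8 same-strand cDNA clone rows against the distance of their centre from the Kcnq1ot1 start (x axis, kb); the red line is the whole Kcnq1ot1 row at 0.42. The 2 clones nearest the start lie above that line, and the 3 clones from 52.1 kb on lie close to 0.

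The other members of this cluster had overlapping groups. Cdkn1c, which encodes the cell cycle inhibitor p57Kip2, had 5.62, 6.05 and 8.51 CPM in I/R 1 to 3, against 8.03, 7.15 and 8.83 CPM in sham 1 to 3, with a log2 fold change of −0.25 ± 0.18 (SE). The growth factor gene Igf2 had 18.3, 17.1 and 36.2 CPM in I/R 1 to 3, against 21.9, 21.6 and 32.9 CPM in sham 1 to 3. The third library of either group held the most Igf2, and the log2 fold change was −0.09 ± 0.34 (SE). H19, a maternally expressed noncoding RNA next to Igf2, was barely detected, with 0.301, 0.0864 and 0.879 CPM in I/R 1 to 3, against 0.0614, 0.773 and 0.662 CPM in sham 1 to 3. Its level varied 10.2-fold within ischemia/reperfusion and 12.6-fold within sham, and no difference was detected (log2 fold change −0.24 ± 0.93, SE). Of the rows in the span of the cluster that are no members, the 3 with the smallest p were both clones named above and Tssc4, which averaged 30.4 ± 0.27 CPM in ischemia/reperfusion and 37.5 ± 2.96 CPM in sham (SD, n = 3 each; edgeR adjusted p = 0.219).

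**Figure D3:**
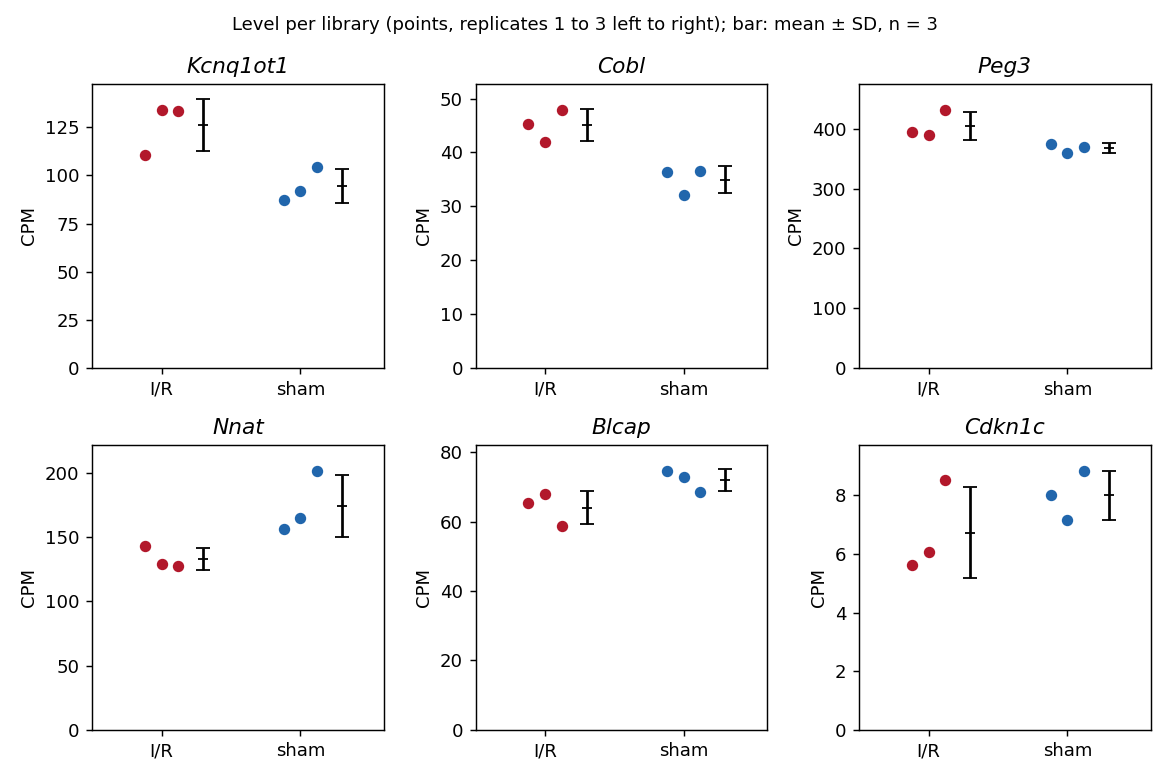
Levels of 6 imprinted genes in CPM (y axis, from 0) in each ischemia/reperfusion (I/R, red) and sham (blue) library, with the mean ± SD beside them (n = 3). Kcnq1ot1, Cobl and Peg3 lie higher and Nnat and Blcap lower in all 3 ischemia/reperfusion libraries than in any sham library, while the Cdkn1c groups overlap.

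Nnat and Blcap were the members below sham without overlap. Nnat encodes neuronatin, a small membrane protein of the endoplasmic reticulum in developing and adult neurons, and lies inside an intron of Blcap, a gene whose product limits cell growth. Nnat had 143, 129 and 128 CPM in I/R 1 to 3, against 156, 165 and 202 CPM in sham 1 to 3. Sham 3 held the highest level, and all 3 ischemia/reperfusion libraries were below every sham library. The means were 133 ± 8.60 CPM in ischemia/reperfusion and 174 ± 24.2 CPM in sham (SD, n = 3 each), which gives a log2 fold change of −0.39 ± 0.11 (SE; edgeR adjusted p = 0.184). Blcap had 65.5, 67.9 and 58.7 CPM in I/R 1 to 3, against 74.6, 72.9 and 68.6 CPM in sham 1 to 3. The gap between its groups was less than 1 CPM wide, and the log2 fold change was −0.17 ± 0.10 (SE; edgeR adjusted p = 0.410). The genes lie on opposite strands. Of 3 clone rows inside the pair, fantom3_2610034M21 had a log2 fold change of −0.17 and fantom3_B230387M20 one of −0.35, while fantom3_A230072C03 had 0.43.

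On chromosome 11 Cobl parted from sham without overlap, and the groups of its neighbor Grb10 overlapped. Grb10 encodes an adaptor that restrains insulin receptor signaling and is known to be expressed from the paternal copy in neurons and from the maternal copy elsewhere. Cobl encodes cordon-bleu, an actin nucleator that shapes neurons. Cobl had 45.2, 42.0 and 48.0 CPM in I/R 1 to 3, against 36.3, 32.1 and 36.5 CPM in sham 1 to 3. The means were 45.0 ± 3.0 CPM in ischemia/reperfusion and 35.0 ± 2.48 CPM in sham (SD, n = 3 each), which gives a log2 fold change of 0.37 ± 0.10 (SE; edgeR adjusted p = 0.181). Grb10 had 65.7, 54.6 and 63.8 CPM in I/R 1 to 3, against 66.0, 71.2 and 60.9 CPM in sham 1 to 3, with a log2 fold change of −0.11 ± 0.11 (SE; edgeR adjusted p = 0.656). Of the 3 tested clones over Grb10, 2 lay higher without overlap, by 0.48 (fantom3_6720447K24) and 0.65 (fantom3_D430001H03) on the log2 scale. Of all clone rows tested 13.2% did so, and the smallest edgeR adjusted p of the 3 clones was 0.314.

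The Peg3 cluster lies on proximal chromosome 7. Peg3 encodes a zinc finger protein linked to maternal behavior and neuronal cell death, Usp29 a ubiquitin-specific protease, and Zim1 a maternally expressed zinc finger protein. Peg3 and Usp29 are transcribed away from each other, and the starts of their deposited rows lie 322 bases apart. RefSeq places the Usp29 start elsewhere, and 263 bases of the RefSeq promoter windows coincide. Peg3 had 395, 389 and 432 CPM in I/R 1 to 3, against 375, 359 and 370 CPM in sham 1 to 3. The groups did not overlap, but the log2 fold change was 0.14 ± 0.09 (SE) with an edgeR adjusted p of 0.467. Usp29 had 95.8, 80.8 and 93.6 CPM in I/R 1 to 3, against 87.8, 96.6 and 96.0 CPM in sham 1 to 3, with a log2 fold change of −0.05 ± 0.10 (SE). The ratio of Usp29 to Peg3 within a library overlapped between the groups, with a log2 difference of −0.19 (exact permutation p = 0.20, 0.371 adjusted over 13 pairs). Zim1 was low, at 2.70 to 5.86 CPM in ischemia/reperfusion and 2.79 to 4.01 CPM in sham. The clone over the 5′ part of Peg3, fantom3_E130105D15, had 43.7, 51.6 and 50.1 CPM in I/R 1 to 3, against 38.0, 42.8 and 36.4 CPM in sham 1 to 3. It too parted without overlap, by 0.31 ± 0.11 (SE) on the log2 scale, with an edgeR adjusted p of 0.225. The other rows of the 3 with the smallest p in this span were the Usp29 clones fantom3_6430406K01 (0.421 ± 0.184 CPM in ischemia/reperfusion and 0.223 ± 0.0517 CPM in sham) and fantom3_C230060D03 (0.649 ± 0.240 CPM in ischemia/reperfusion and 0.446 ± 0.241 CPM in sham; SD, n = 3 each).

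The region of chromosome 7 known from the Prader-Willi and Angelman syndromes holds 7 members in 2 groups. Snrpn encodes a spliceosomal protein of neurons and is expressed from the paternal copy, while the ubiquitin ligase gene Ube3a is expressed from the maternal copy in neurons, where a long paternal transcript that starts near Snrpn runs antisense to it. Snrpn had 274, 324 and 263 CPM in I/R 1 to 3, against 323, 335 and 299 CPM in sham 1 to 3. The groups overlapped through I/R 2, and the log2 fold change was −0.15 ± 0.10 (SE). The Snurf row, which lies on the same transcript, held 99.7% to 99.9% of the Snrpn count in each library, so both rows count the same reads. Ube3a had 135, 152 and 146 CPM in I/R 1 to 3, against 150, 144 and 149 CPM in sham 1 to 3, with a log2 fold change of −0.03 ± 0.09 (SE). Of 23 clone rows on the strand opposite Ube3a, 8 were positive and 15 negative, with a median log2 fold change of −0.09.

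Noncoding rows of this span differed in both directions without any call. Of 44 tested clone rows, 2 lay higher without overlap (4.55%, against 13.2% of all clone rows) and 12 lower (27.3%, against 8.38%), and clones that overlap each other share reads. An unadjusted p under 0.05 was found for 1 higher clone (2.27%, against 10.4% of all clone rows) and for 8 lower clones (18.2%, against 5.63%). The clone fantom3_9330181F20 had 34.9, 37.6 and 39.7 CPM in I/R 1 to 3, against 51.5, 44.8 and 47.1 CPM in sham 1 to 3, and fantom3_B230361E09 averaged 27.1 ± 0.613 CPM in ischemia/reperfusion and 33.7 ± 2.39 CPM in sham (SD, n = 3 each). Both were lower, by log2 fold changes of −0.35 ± 0.10 and −0.31 ± 0.10 (SE), with edgeR adjusted p-values of 0.184 and 0.209. In contrast fantom3_B230105C16, nearer to Ube3a, had 7.99, 11.3 and 10.6 CPM in I/R 1 to 3, against 7.27, 7.26 and 6.12 CPM in sham 1 to 3 (log2 fold change 0.53 ± 0.16, SE; edgeR adjusted p = 0.194). The noncoding Ipw gene had a log2 fold change of 0.39 at overlapping groups, and D7Ertd715e one of −0.26 without overlap.

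In the neighboring group Ndn was abundant and Magel2, Mkrn3 and Peg12 were low. Ndn and Magel2 encode MAGE family proteins, Mkrn3 a makorin known to restrain puberty and Peg12 a relative of the GSK3-binding Frat proteins. Ndn had 190, 204 and 317 CPM in I/R 1 to 3, against 236, 254 and 386 CPM in sham 1 to 3. The third library of either group was the highest, and the log2 fold change was −0.30 ± 0.26 (SE). Magel2 had 5.96, 2.55 and 6.02 CPM in I/R 1 to 3, against 3.50, 2.23 and 3.33 CPM in sham 1 to 3. Magel2 was at sham level in I/R 2 and above every sham library in I/R 1 and I/R 3, and its log2 fold change was 0.68 ± 0.32 (SE; edgeR adjusted p = 0.344). Mkrn3 stayed between 1.94 and 2.73 CPM in ischemia/reperfusion and between 1.85 and 2.32 CPM in sham. Peg12 had 0.502, 0.151 and 0.643 CPM in I/R 1 to 3, against 0.287, 0.236 and 0.331 CPM in sham 1 to 3. The only other rows in this span that were tested, clones fantom3_3526402I12 over Ndn and fantom3_D930038D13 over Peg12, had log2 fold changes of −0.28 and −0.15.

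On proximal chromosome 6 and in Zdbf2 the ischemia/reperfusion libraries differed among themselves, and Peg10 split as Magel2 did. Peg10 is derived from a retrotransposon and needed for the placenta, Sgce encodes epsilon-sarcoglycan, Asb4 a substrate adaptor of ubiquitin ligases and Calcr the calcitonin receptor. Peg10 had 27.7, 11.7 and 26.5 CPM in I/R 1 to 3, against 9.79, 12.2 and 15.5 CPM in sham 1 to 3. I/R 1 and I/R 3 lay above every sham library and I/R 2 within the sham range, and the log2 fold change of 0.82 ± 0.35 (SE) had an edgeR adjusted p of 0.338. Calcr had 2.43, 0.411 and 0.986 CPM in I/R 1 to 3, against 0.799, 0.537 and 1.12 CPM in sham 1 to 3, and was lowest in I/R 2. Zdbf2, a paternally expressed gene of chromosome 1 whose loss in mice impairs feeding and growth, had 44.0, 28.6 and 46.4 CPM in I/R 1 to 3, against 32.7, 29.3 and 35.3 CPM in sham 1 to 3. Without I/R 2 the log2 fold changes were 1.12 for Peg10, 0.98 for Magel2, 1.06 for Calcr, 1.00 for Peg12 and 0.48 for Zdbf2, against 0.82, 0.68, 0.64, 0.60 and 0.29 with all libraries. The edgeR adjusted p of Peg10 is then 0.0509, the lowest over its 15 alternatives (highest 0.626), and that of Magel2 0.111 (highest 0.626).

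The hypothalamic markers differed between the same libraries. I/R 2 held 5.58 CPM of the summed markers, with Oxt, the oxytocin gene, at 0 counts, and Avp, the vasopressin gene, and Hcrt, the orexin gene, at 0.108 CPM each. Of the 10 markers 9 had a positive log2 fold change, and the sum differed 22.2-fold between the highest and lowest library. Peg10, Magel2, Peg12, Calcr and Zdbf2 were lower in I/R 2 than in I/R 1 and I/R 3, as the markers were. That order is not particular to these genes. Cobl, H13, Igf2, Mest and Peg3 were among the other members lowest in I/R 2, while others such as Rasgrf1 and Gnas were highest there. Among the sham libraries the markers were lowest in sham 2 and highest in sham 3. Peg12, Calcr and Zdbf2 had that order too, Magel2 was lowest in sham 2 and highest in sham 1, and Peg10 was lowest in sham 1. Cobl, H13 and Igf2 also had the order of the markers in sham. Asb4 had 3.59, 3.85 and 4.09 CPM in I/R 1 to 3, against 1.33, 6.55 and 1.47 CPM in sham 1 to 3, and was highest in sham 2. Without sham 2 its log2 fold change was 1.45 (edgeR adjusted p = 0.0570; 0.0570 to 0.986 over the 15 alternatives), against 0.31 ± 0.65 (SE) with all libraries. The part of hypothalamic tissue in the differences of Peg10, Magel2, Peg12, Calcr, Zdbf2 and Asb4 was not tested. Sgce, which lies next to Peg10 on the other strand, was even, at 12.0, 12.4 and 11.8 CPM in I/R 1 to 3 and 11.9, 13.5 and 12.2 CPM in sham 1 to 3. Among other rows of this span Casd1 averaged 54.1 ± 5.75 CPM in ischemia/reperfusion and 66.4 ± 0.624 CPM in sham (SD, n = 3 each; edgeR adjusted p = 0.223), and the clones fantom3_B230380B16 and fantom3_A230094E16 had log2 fold changes of 1.56 and −0.30.

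**Figure D4:**
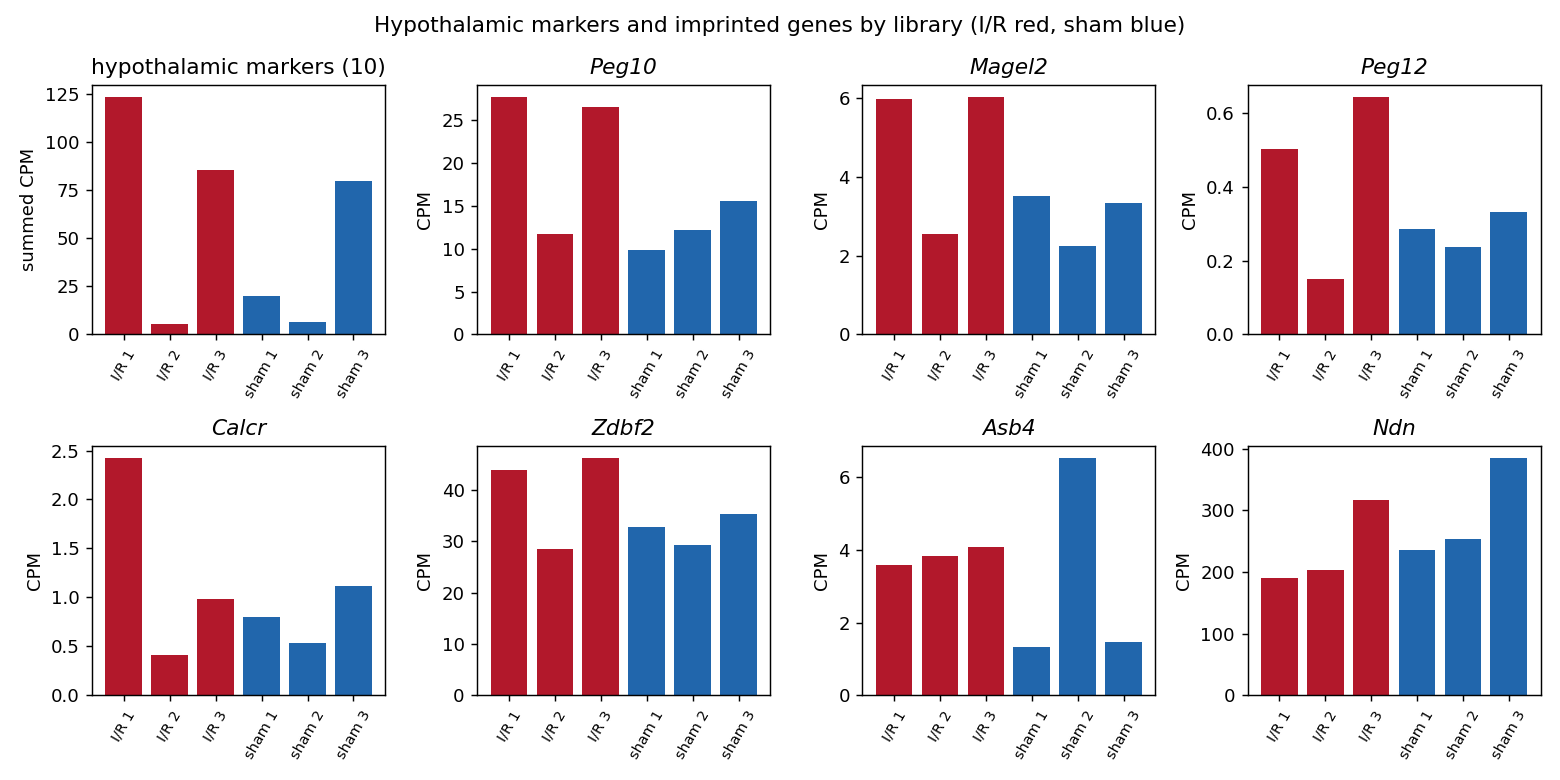
Summed CPM of 10 hypothalamic markers and CPM of 7 imprinted genes (y axes, from 0) in each library, ischemia/reperfusion in red and sham in blue. The markers, Peg10, Magel2, Peg12, Calcr and Zdbf2 are lower in I/R 2 than in I/R 1 and I/R 3; Asb4 is highest in sham 2 and Ndn is highest in the third library of each group.

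Pairs of members that share a locus were compared by the ratio of their RPKM within each library, which does not depend on library scaling. Of 14 pairs, 13 had at least 10 counts for both genes in every library, and H19 over Igf2, with a lowest count of 3, was left out. The smallest two-sided p that an exact permutation test can give with 3 against 3 libraries is 0.10, and it was reached by 2 pairs. Kcnq1ot1 was 0.459, 0.516 and 0.365 times Cdkn1c in I/R 1 to 3, against 0.253, 0.300 and 0.275 times in sham 1 to 3. The mean log2 ratio was −1.18 ± 0.25 in ischemia/reperfusion and −1.86 ± 0.12 in sham (SD, n = 3 each), a difference of 0.68 (exact permutation p = 0.10, 0.371 adjusted over 13 pairs). Grb10 was 1.58, 1.42 and 1.45 times Cobl in I/R 1 to 3, against 1.98, 2.42 and 1.82 times in sham 1 to 3, a log2 difference of −0.47 with the same exact p. These 2 pairs contain the members with the smallest p in the fit and are not independent of it. In the other 11 pairs the groups overlapped, with exact permutation p-values of 0.20 to 0.80.

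**Figure D5:**
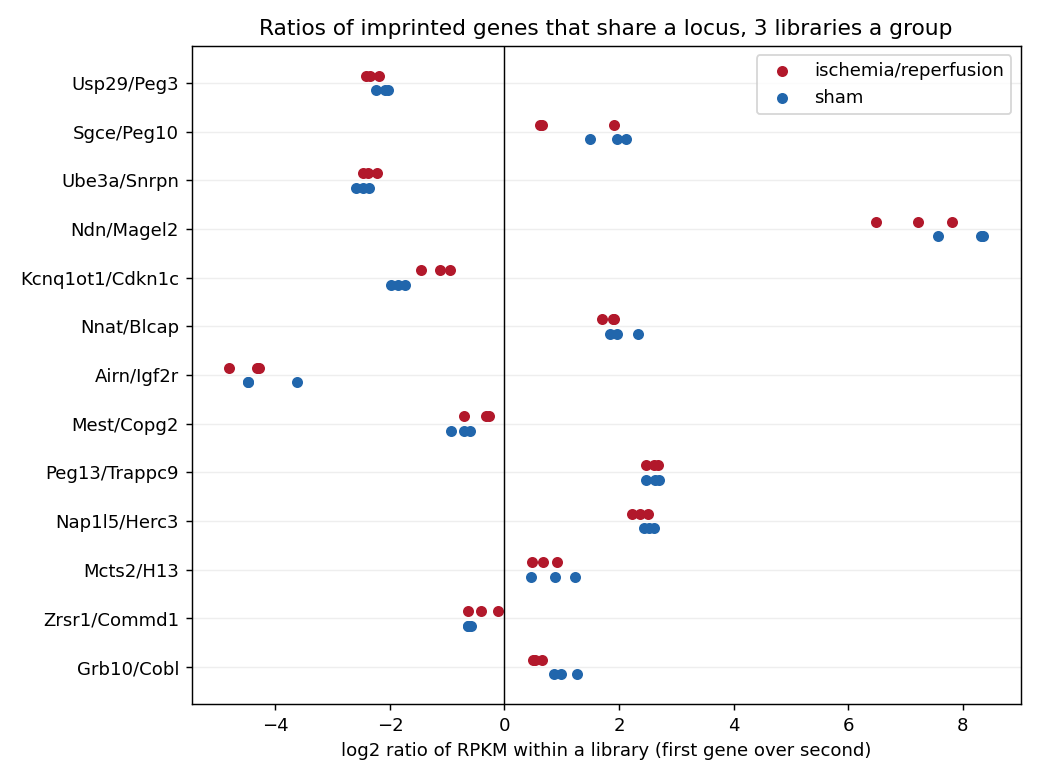
Log2 ratio of RPKM of the first over the second gene of a pair (x axis) in each ischemia/reperfusion (red) and sham (blue) library, for 13 pairs of imprinted genes that share a locus (y axis). The groups part for Kcnq1ot1/Cdkn1c and Grb10/Cobl only; the widest spreads are in Ndn/Magel2 and Sgce/Peg10.

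A set of paternally expressed retrogenes lies inside introns of host genes, and the ratios of these pairs overlapped between groups. Nap1l5 lies in Herc3, which encodes a ubiquitin ligase. Nap1l5 had 327, 332 and 362 CPM in I/R 1 to 3, against 360, 446 and 351 CPM in sham 1 to 3, and the log2 fold change was −0.18 ± 0.11 (SE). Herc3 had 158, 177 and 160 CPM in I/R 1 to 3, against 167, 183 and 152 CPM in sham 1 to 3. The ratio of the pair differed by −0.15 on the log2 scale. Mcts2, a translation factor retrogene, had 6.84, 7.17 and 6.26 CPM in I/R 1 to 3, against 6.66, 8.14 and 5.46 CPM in sham 1 to 3. Its host H13, the signal peptide peptidase gene, had 53.7, 47.4 and 56.0 CPM in I/R 1 to 3, against 45.3, 43.4 and 49.3 CPM in sham 1 to 3, a log2 fold change of 0.19 ± 0.10 (SE; edgeR adjusted p = 0.401). The 5 clone rows over H13 were all positive, with a median of 0.32 and the largest, fantom3_A230012I08, at 0.44. Zrsr1, which encodes a splicing factor, had 73.6, 62.7 and 70.3 CPM in I/R 1 to 3, against 71.4, 71.4 and 61.8 CPM in sham 1 to 3. Its host Commd1, a copper transport and trafficking gene, had 14.5, 17.7 and 17.1 CPM in I/R 1 to 3, against 20.3, 19.5 and 17.6 CPM in sham 1 to 3, with a log2 fold change of −0.22 ± 0.12 (SE).

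The noncoding members other than Kcnq1ot1 did not part from sham. Peg13, a brain-expressed noncoding RNA inside Trappc9, had 203, 281 and 258 CPM in I/R 1 to 3, against 282, 267 and 235 CPM in sham 1 to 3. Trappc9, a vesicle trafficking gene, had 57.8, 69.1 and 66.7 CPM in I/R 1 to 3, against 72.2, 65.4 and 67.4 CPM in sham 1 to 3. The ratio of the pair was nearly the same in both groups, with mean log2 ratios of 2.59 in ischemia/reperfusion and 2.59 in sham. Airn, the noncoding RNA that silences Igf2r on the paternal copy outside neurons, had 0.943, 0.670 and 0.943 CPM in I/R 1 to 3, against 0.860, 1.44 and 0.890 CPM in sham 1 to 3. Sham 2 alone was high, and the log2 fold change was −0.31 ± 0.30 (SE). The Airn row is 2188 bases long, while its position runs over chr17:12741311-12859884, so most of that span is not counted in it. Of 11 tested clone rows on the Airn strand 10 were positive, where 59.4% of all clone rows tested were. Their median of 0.44 was opposite in sign to the Airn row, and none of the 11 had an unadjusted p under 0.05. Igf2r, which encodes the receptor that clears IGF2, was even, at 75.5, 76.3 and 77.1 CPM in I/R 1 to 3 and 78.2, 72.6 and 80.8 CPM in sham 1 to 3. Over the 4 tested noncoding members 1 log2 fold change was positive and 3 negative (median −0.16), against 16 positive and 21 negative (median −0.02) over the 37 tested coding members.

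The remaining members had overlapping groups. Mest, an alpha/beta hydrolase gene linked to growth, had 47.9, 38.2 and 46.5 CPM in I/R 1 to 3, against 44.4, 36.5 and 40.9 CPM in sham 1 to 3. Copg2, a coat protein gene that overlaps the end of Mest on the other strand, had 86.2, 90.2 and 81.1 CPM in I/R 1 to 3, against 104, 100.2 and 89.9 CPM in sham 1 to 3. For Copg2, I/R 2 lay just above sham 3, and the log2 fold change was −0.19 ± 0.10 (SE; edgeR adjusted p = 0.357). Impact, which restrains the translational stress kinase GCN2, had 357, 355 and 303 CPM in I/R 1 to 3, against 402, 453 and 331 CPM in sham 1 to 3. I/R 3 and sham 3 were the lowest of their groups, and the log2 fold change was −0.22 ± 0.12 (SE; edgeR adjusted p = 0.393). Gnas, which encodes the stimulatory G protein subunit and other products from several promoters, had 552, 647 and 610 CPM in I/R 1 to 3, against 631, 616 and 578 CPM in sham 1 to 3 (log2 fold change −0.01 ± 0.09, SE). The row does not separate the promoters.

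Rasgrf1, a Ras exchange factor gene of neurons, had 233, 323 and 271 CPM in I/R 1 to 3, against 292, 294 and 237 CPM in sham 1 to 3, and Inpp5f, a phosphoinositide phosphatase gene, had 123, 120 and 122 CPM in I/R 1 to 3, against 129, 142 and 117 CPM in sham 1 to 3. Both overlapped, with log2 fold changes of 0.01 ± 0.13 and −0.09 ± 0.10 (SE). Plagl1, a zinc finger gene known to control other imprinted genes, had 10.8, 9.01 and 8.51 CPM in I/R 1 to 3, against 9.01, 6.65 and 10.4 CPM in sham 1 to 3. Slc38a4, an amino acid transporter gene of liver and placenta, had 1.44, 0.821 and 1.39 CPM in I/R 1 to 3, against 1.09, 1.52 and 1.86 CPM in sham 1 to 3. Neither parted between groups, with log2 fold changes of 0.12 ± 0.17 for Plagl1 and −0.29 ± 0.29 for Slc38a4 (SE).

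Sorted by the parental copy each gene is known for, the members did not fall on different sides. Of 25 paternally expressed genes 12 were positive and 13 negative, with a median log2 fold change of −0.05. Without Snurf, which counts the reads of Snrpn, 12 of 24 were positive and 12 negative, with a median of −0.03. Of 14 tested maternally expressed genes 5 were positive and 9 negative, with a median of −0.03. Gnas and Grb10, whose expressed copy depends on tissue or promoter, were kept apart and were both negative. Ube3a and Igf2r, whose imprinting also differs between neurons and other cells, were counted as maternally expressed. Within the spans of the clusters 27 other gene rows were tested, of which 10 were positive and 17 negative. Of 140 clone rows tested there, 73 were positive and 67 negative. The edgeR fit called 0 among either. DESeq2 called 0 of the gene rows and 1 of the clone rows, fantom3_D130059L12 given above, against 1.70% of the rows it adjusted. An unadjusted p under 0.05 was found for 1 gene row on the higher side (3.70%) and 3 on the lower side (11.1%), where 6.39% and 8.71% of gene-symbol rows were. It was found for 9 clone rows on either side (6.43% each), where 10.4% of all clone rows were higher and 5.63% lower.

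A list of 53 symbols taken as other imprinted genes, of which 47 were found, had 42 tested rows. Of these 20 were positive and 22 negative, with a median log2 fold change of −0.06 and 0 called by edgeR. An unadjusted p under 0.05 was found for 4 genes on the higher side (9.52%, against 6.39% of gene-symbol rows) and 8 on the lower side (19.05%, against 8.71%). Chrac1, which encodes a chromatin remodeling subunit and neighbors Trappc9, averaged 8.83 ± 1.11 CPM in ischemia/reperfusion and 12.9 ± 0.943 CPM in sham (SD, n = 3 each), with a log2 fold change of −0.55, an edgeR adjusted p of 0.155 and a DESeq2 adjusted p of 0.0300. Ago2, which encodes the slicing Argonaute protein in the same region, averaged 57.8 ± 9.12 CPM in ischemia/reperfusion and 44.0 ± 5.66 CPM in sham (SD, n = 3 each; edgeR adjusted p = 0.222). The others of the 4 with the smallest p were Tssc4 and Casd1, given above. DESeq2 called 2 of the 42, against 1.70% of the rows it adjusted. These were Chrac1 and Gab1, with Gab1 at 29.4 ± 12.3 CPM in ischemia/reperfusion and 16.8 ± 0.859 CPM in sham (DESeq2 adjusted p = 0.0358). Gab1 is named because of that call.

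Of 30 genes that keep or read imprints 27 were tested with 0 called by edgeR, 16 positive and 11 negative, with a median log2 fold change of 0.02. Cbx5, which encodes the heterochromatin protein HP1 alpha, averaged 265 ± 27.5 CPM in ischemia/reperfusion and 322 ± 8.39 CPM in sham (SD, n = 3 each; edgeR adjusted p = 0.234). Yy1, the gene of the factor whose motif was searched above, averaged 28.4 ± 3.14 CPM in ischemia/reperfusion and 24.0 ± 1.04 CPM in sham. Tet3, a methylcytosine dioxygenase gene, and Suz12, a Polycomb subunit gene, had log2 fold changes of 0.30 and −0.18. Zfp57 itself was at 5.72 ± 0.254 CPM in ischemia/reperfusion and 5.45 ± 0.305 CPM in sham (SD, n = 3 each).

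The authors' deposited table of the same comparison calls many more rows. Of the 41 members listed in the authors' deposited table, 11 were higher and 8 lower at a q-value under 0.05 (46.3%), beside 35.2% of its gene-symbol rows. Its q-value was 2.59e-14 for Kcnq1ot1, 1.24e-14 for Cobl and 1.65e-40 for Nnat, with log2 fold changes of 0.47, 0.42 and −0.33 in the authors' deposited table. The sources do not give the test behind these values.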

How the data were processed

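Ribosomal-RNA-depleted total RNA of mouse brain was read as pairs on a HiSeq sequencer, per the labels' protocols. The genome build was mm10, per the submitters' processing notes. The aligner, the counting tool, its strand setting and the annotation release are not given in the sources. The deposited counts are whole, not normalized. The deposited RPKM values match counts divided by the row length in kilobases and by the total in units of 1e6, in 100% of values (relative tolerance 0.001). The authors' comparison table gives a log2 fold change, p-values and q-values per row, used only where named. Row length is another deposited value, used as given.

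Counts were tested with edgeR 4.0.16 in R 4.3.3 (TMM factors, filterByExpr defaults, robust quasi-likelihood F test, two-sided) for ischemia/reperfusion over sham, 3 libraries each, with Benjamini-Hochberg adjustment over all 40170 rows tested and a threshold of 0.05. The fit was tested on simulated data. CPM are counts per 1e6 of the TMM-scaled total. Ratios of RPKM within a library were compared with an exact permutation test, leaving out pairs with under 10 counts. Rows that overlap share reads. A floor of 3 counts was 0.0602 to 0.0648 CPM. Alternative fits used upper-quartile or RLE factors, every row, rows averaging 1 CPM or more, limma-voom (limma 3.58.1), DESeq2 1.42.0, edgeR without robust estimation, the replicate number as a block, gene-symbol rows only and leaving out each library. The members, lists and tests were chosen with earlier results of these data known. Values in every library were given for members with an unadjusted p under 0.05 or groups that do not overlap, for the most abundant member of each cluster, for noncoding members and for partners at their locus, and also for Snrpn, Ube3a, Peg12, Calcr and Asb4, chosen after their values were seen. Other rows of a cluster of 3 or more members were named when among its 3 smallest p-values, and up to 4 genes of each other list likewise; further clones, Ipw, D7Ertd715e, Gab1 and Zfp57 were named after their values were seen.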

Additional observations from a re-analysis of the deposited data

How the results depend on the processing

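Under 15 alternatives, 565 of 612 log2 fold changes of the 41 tested members kept their sign and their side of the threshold, 1 passed it (Kcnq1ot1 without I/R 1) and 46 changed sign, in 16 members. Of 91 values of the 13 pair differences, 5 in 3 pairs changed sign, all on leaving out a library. These pairs ranged from −0.421 to 0.00337 (Airn/Igf2r), −0.362 to 0.0186 (Mcts2/H13) and −0.0691 to 0.0557 (Peg13/Trappc9). Rows called over all rows (1) were 2 with upper-quartile factors, 77 without a filter, 0 with a mean of at least 1 CPM, 576 with DESeq2, 4 with limma-voom, 4 without robust estimation and 0 with gene-symbol rows only. Leaving out a library gave 0 to 1057 called rows, with 1057 without I/R 1, 43 without I/R 2 and 34 without sham 2, and 0 to 1 called members. Members at an unadjusted p under 0.05 (3) were 6 with upper-quartile factors, 5 without robust estimation, 5 with gene-symbol rows only and 3 to 12 when leaving out a library (12 without I/R 2, 6 without I/R 3 or sham 3). The members' median of −0.03 became 0.00735, 0.00495 and 0.00873 with upper-quartile factors, a mean of at least 1 CPM and gene-symbol rows only; the cause was not tested. The labels do not say whether same-numbered libraries belong together. Correlations of same-numbered libraries were −0.0678, 0.0337 and 0.110, and those of differently numbered libraries ran from −0.135 to 0.110. With 3 libraries a group these values cannot decide whether the numbers pair the libraries. With the replicate number as a block 0 rows were called and 7 members had an unadjusted p under 0.05.

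With RLE factors, no filter and DESeq2, Mcts2 had −0.00876, −0.00634 and −0.00866 and Rasgrf1 −0.00322, −0.000853 and −0.00321. With upper-quartile factors, a mean of at least 1 CPM and gene-symbol rows only, the log2 fold change of Gnas was 0.0296, 0.0201 and 0.0307, of Igf2r 0.0241, 0.0159 and 0.0262, and of Herc3 0.0213, 0.0116 and 0.0227; Ube3a had 0.00735 and 0.00873 with the first and last of these. Leaving out a library gave ranges of −0.061 to 1.45 for Asb4, −0.237 to 1.06 for Calcr, −0.116 to 0.152 for Mkrn3, −0.101 to 0.497 for Zim1, −0.0691 to 0.0384 for Gnas, −1.34 to 0.237 for H19, −0.0934 to 0.0459 for Herc3, −0.525 to 0.126 for Igf2, −0.0623 to 0.00986 for Igf2r, −0.137 to 0.155 for Mcts2, −0.183 to 0.0369 for Peg13, −0.0472 to 0.261 for Plagl1, −0.124 to 0.107 for Rasgrf1, −0.109 to 0.0173 for Usp29 and −0.0593 to 0.0748 for Zrsr1. H19, Peg12, Airn and Phlda2 were near or under 1 CPM, and with 3 libraries a group differences in them could be missed. The lowest edgeR adjusted p over the alternatives was 0.620 for H19, 0.300 for Peg12 and 0.530 for Airn. Without I/R 2 Peg12 had an edgeR unadjusted p of 0.0406.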
